A study of Mus musculus with 4 samples.

Results

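Genes that encode the endothelin and adrenomedullin peptides, one of their processing enzymes and their receptors were followed in the atrioventricular canal (AVC) of the mouse embryo, in wild type hearts and in Tbx3 hypomorphic mutant hearts. The 10 genes are Edn1, Edn3, Ece1, Ednra, Ednrb, Adm, Calcrl, Ramp1, Ramp2 and Ramp3, out of 27670 genes named on the array, and all their 18 probes were taken by gene name. The set was chosen from the measured values of these same arrays, namely the red over green ratios, so the differences between mutant and control given for its members are a description and carry no test. A probe was kept where, on 3 or more arrays, at least 1 of its channels was clearly above background. This held for 13 of the 18 probes, which stand for 9 of the 10 genes. Edn3 was not among them.

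The AVC joins the embryonic atria to the ventricles and gives rise to the cushions of the valves and to part of the conduction system, and Tbx3 is a T-box transcriptional repressor active there. Both groups were embryos at e10.5 on a background of 50% Sv129 and 50% C57Bl6, either wild type controls or Tbx3 mutants, which the series calls hypomorphic; the structure of the allele is not given in the sources used here. Micro-dissected AVC pieces of 5 hearts were pooled for each sample, and each of 4 arrays carried 1 control pool in Cy3 (green) and 1 mutant pool in Cy5 (red), so that 8 pools entered in all. The dyes ran the same way on all 4 arrays, and a dye effect particular to a probe cannot be told apart from the genotype.

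Endothelins are short vasoactive peptides that are cut from a longer precursor, the final step being made by endothelin converting enzymes such as ECE1, and that act through the G protein-coupled receptors EDNRA and EDNRB. In the embryo, endothelin 1 signalling through EDNRA patterns the cranial and cardiac neural crest, while endothelin 3 and EDNRB are needed for melanocytes and enteric neurons. Adrenomedullin is a peptide of the calcitonin family, needed for blood and lymphatic vessels. It acts on the receptor CALCRL, and the partner protein sets what CALCRL binds: RAMP1 makes it a receptor for calcitonin gene-related peptide, and RAMP2 or RAMP3 makes it a receptor for adrenomedullin. Both Edn1 and Adm are also known as genes that respond to low oxygen.

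The libraries were checked once over all genes. Median spot signals ran from 117.9 to 133.5 in the control channel and from 175.1 to 232.5 in the mutant channel, before normalization. On the log2 scale, mutant over control, the Tbx3 probe gave -1.35, -1.40, -1.43 and -1.21 on arrays 1 to 4, with a mean of -1.35 ± 0.10 (SD, n = 4; limma with Benjamini-Hochberg adjustment over 19099 genes, adjusted p = 0.0454), and whether it lies in the altered part of the allele is not known here. A second, dim Tbx3 probe lowers the size: with the mean over both probes the ratio was -0.74 (adjusted p = 0.119). On the brighter probe Tbx3 was the only gene past the threshold of 0.05, which makes 0.00524% of the genes tested, and without array 1, 3 or 4 its adjusted p was 0.346, 0.604 or 0.512. Without array 2, 193 genes passed. At an unadjusted p under 0.05 the same limma fit passed 14.5% of genes. The listed markers of the AVC were all well above background: 8 of 8 of myocardium, 10 of 10 of cushion mesenchyme and 10 of 10 of endothelium and endocardium.

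One library stood apart. In the control pool of array 2, 564 of 19099 genes (2.95%) lay more than 1 log2 unit above each of the other 3 control pools, and the SD of log2 ratios over genes was 0.49 on that array against 0.26 to 0.29 on the others. The genes included 5 of the 7 measured members of a uterus and decidua list (Esr1, Hoxa10, Hoxa11, Prl8a2 and Myh11), 6 of 8 leukocyte markers and, in the cushion mesenchyme list, Postn, Col1a1 and Col3a1. The mean of each member's brightest probe is therefore given without array 2 as well. In pooled tissue, fewer cells of a type and less RNA per cell cannot be told apart.

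Edn1, the gene of endothelin 1, was higher in the mutant pool on all 4 arrays. Its one probe lies at chr13:41748495-41748554 on the plus strand of build mm7, and its first 30 bases are shown so that the transcript measured can be recognised.
Edn1 probe, bases 1 to 30: cagtaaaaatatgttcccgtatgtattgta
The control pools stood at normalised log2 levels of 10.49, 10.44, 10.30 and 10.45 on arrays 1 to 4, and the mutant pools at 11.44, 10.55, 10.93 and 11.47. The control pools lay close together, the mutant pools were spread out, and the lowest mutant pool, that of array 2, was 0.06 above the highest control pool. The log2 ratios were 0.95, 0.12, 0.63 and 1.02, with a mean of 0.68 ± 0.41 (SD, n = 4), a 1.60-fold higher level. Without array 2 the mean was 0.87 ± 0.21 (n = 3). Of the 19099 genes, 116 (0.607%) had a larger mean ratio.

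Adm, the gene of adrenomedullin, was also higher on all 4 arrays. Its probe lies at chr7:106544845-106544904 on the plus strand of mm7.
Adm probe, bases 1 to 30: taagggcattttaaagtgattatattgtca
Its log2 levels were 11.74, 11.25, 11.56 and 11.24 in the control pools and 12.64, 11.53, 12.19 and 11.86 in the mutant pools. Within each array the mutant pool was the higher one, but the groups overlapped, because the control pool of array 1 was above the mutant pool of array 2. The log2 ratios were 0.90, 0.28, 0.63 and 0.62, with a mean of 0.61 ± 0.25 (SD, n = 4), a 1.52-fold higher level, and 0.71 ± 0.16 (n = 3) without array 2. A larger mean was seen for 156 genes (0.817%).

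Edn1 and Adm were the only members higher on all 4 arrays, 2 of 9, where 12.3% of all genes were. Edn1 was the only member whose 4 mutant levels all lay above the 4 control levels, as held for 3.90% of all genes. On both genes array 2 gave the smallest ratio.

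**Figure D1:**
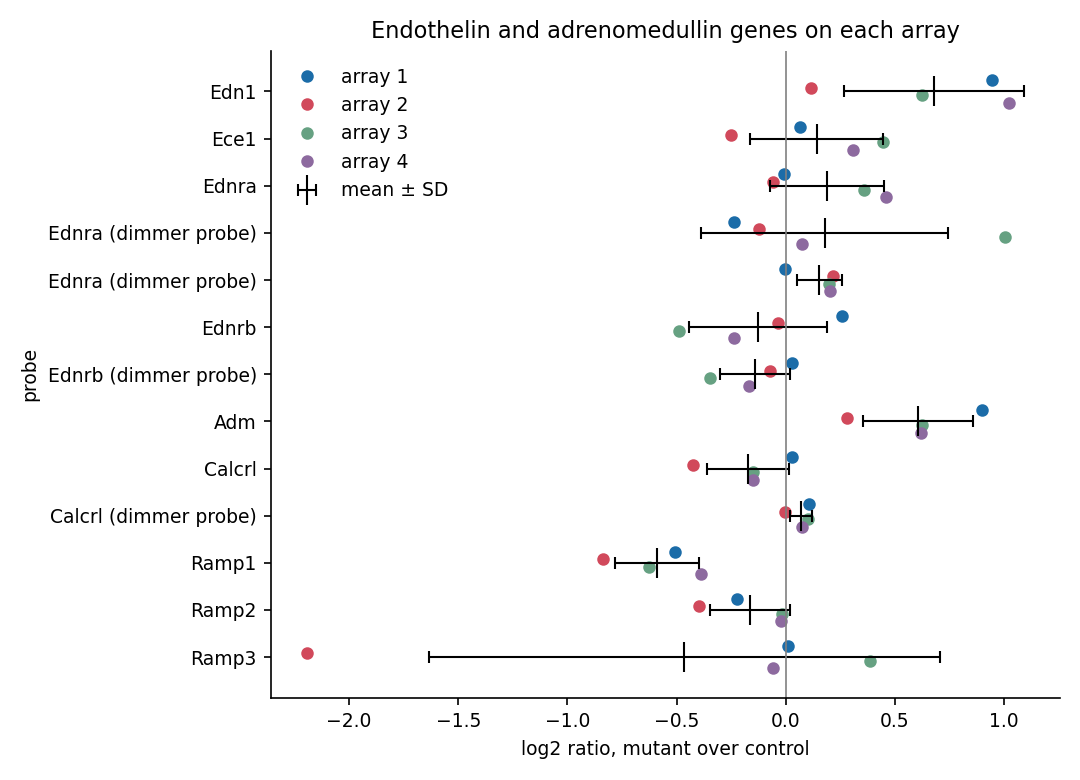
Log2 ratio of mutant over control (x axis) for the 13 probes past the filter (rows), with 1 coloured point for each array and a black cross for the mean with its SD over 4 arrays. Edn1 and Adm lie to the right of 0 on every array, Ramp1 and Ramp2 to the left, and the Ramp3 point of array 2 stands at -2.19.

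The promoters of the members were searched for motifs of the oxygen-sensing HIF factors and of other factors. The RefSeq promoter table (GRCm38.p6, from 250 bases before to 50 after the transcript start) held 12 promoters for 9 members; Ramp2 had no entry. The 6 motifs searched, on both strands, were the HIF cores ACGTG (in 19.6% of all 32851 promoters) and GCGTG (32.4%), the T-box core GGTGTGA (3.98%), the GATA motif GATAA (25.4%), the AP-1 motif TGACTCA (5.2%) and the E-box CACGTG (7.15%), which contains the first HIF core on both strands. The 250 bases before the Adm start, chr7:110627407-110627656 on the plus strand, held GCGTG on the opposite strand 90 and 54 bases before the start, and the matches are in capitals.
Adm upstream, GRCm38.p6: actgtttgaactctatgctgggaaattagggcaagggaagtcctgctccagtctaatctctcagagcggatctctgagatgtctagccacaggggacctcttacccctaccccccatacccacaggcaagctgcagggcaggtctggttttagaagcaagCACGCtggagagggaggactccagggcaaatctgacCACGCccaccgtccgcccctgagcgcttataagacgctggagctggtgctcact
Edn1 had its matches just after the start, with the GATA motif at position 9 and the ACGTG core at position 22, both on the opposite strand. Bases 5 to 30 of the transcribed strand, chr13:42301480-42301505 on the plus strand, are shown with the HIF core in capitals.
Edn1 after the start, GRCm38.p6: ggtcttatctctggctgCACGTtgcc
HIF cores also occurred in the windows of Ednrb, Calcrl and Ramp3 and in 3 of the 4 windows of Ece1. The Ece1 windows with starts at 137862237 and 137862280 overlap and share the same match. The share of all promoters with either form of the core was not counted. The windows of Ramp1, Ednra and Edn3 held none of the 6. No member's window held the T-box core or the AP-1 motif. A match is a string of letters in a window, and no binding was measured.

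**Figure D2:**
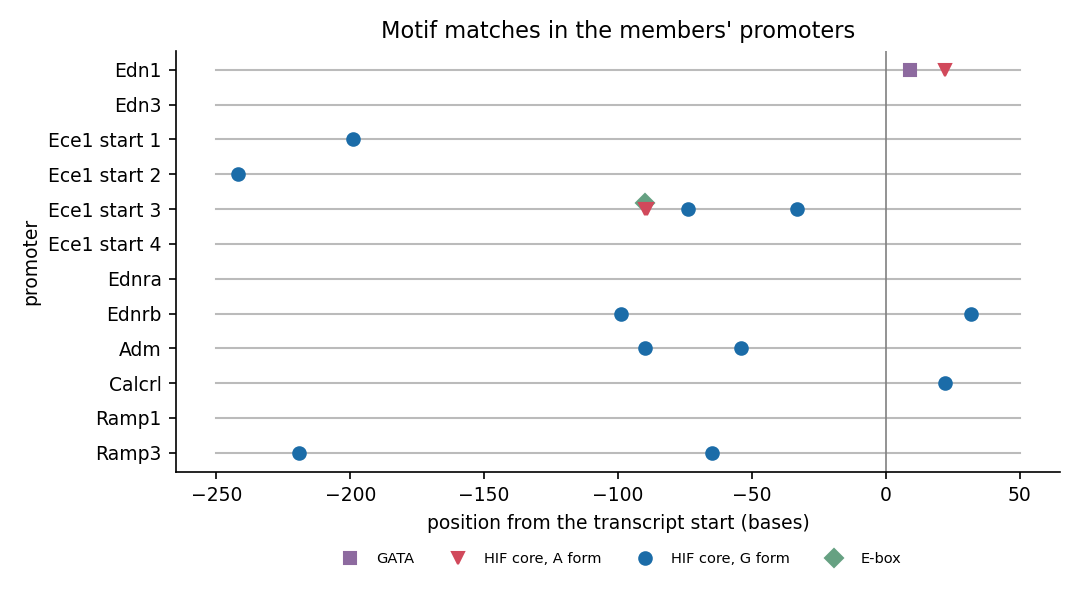
Positions of motif matches (x axis, bases from the transcript start) in the 12 promoter windows of 9 members (rows), with the motif given by colour and shape. Adm carries matches at -90 and -54, Edn1 at 9 and 22, and the windows of Ramp1, Ednra and Edn3 carry none.

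Edn3, the ligand of EDNRB in melanocyte and enteric precursors, could not be compared. Its 2 probes, both for the same transcript, were well above background in 0 of 4 control pools, and in 1 and 0 of 4 mutant pools. No fold is given for it.

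Ece1, which makes the last cut of the endothelin precursor, varied in sign. The probe at chr4:137343591-137343650 gave log2 levels of 15.46, 15.58, 15.31 and 15.39 in the control pools and 15.52, 15.33, 15.75 and 15.70 in the mutant pools. The groups overlapped, with array 2 the only one on which the mutant pool was lower. The log2 ratios of 0.06, -0.25, 0.44 and 0.31 have a mean of 0.14 ± 0.31 (SD, n = 4), and of 0.27 without array 2. A second Ece1 probe, from a cDNA clone, was not well above background in any pool.

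Ednra, the receptor of the neural crest and of vascular smooth muscle, was covered by 4 probes, of which 3 were past the filter. The probe that stands for the gene, at chr8:76203860-76203919 on the minus strand, gave log2 levels of 13.40, 13.64, 13.25 and 13.28 in the control pools and 13.40, 13.59, 13.61 and 13.73 in the mutant pools. Arrays 1 and 2 showed almost no difference and arrays 3 and 4 a higher mutant pool, and the groups overlapped. Its log2 ratios of -0.01, -0.06, 0.36 and 0.46 have a mean of 0.19 ± 0.26 (SD, n = 4), and of 0.27 without array 2. The probe at chr8:76208590-76208649 is printed whole, because it gave the smallest spread over arrays of the 3 Ednra probes past the filter.
Ednra probe at chr8:76208590-76208649, mm7, minus strand: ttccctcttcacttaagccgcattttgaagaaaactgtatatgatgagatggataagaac
This probe gave log2 ratios of -0.0019, 0.22, 0.20 and 0.20, with a mean of 0.15 ± 0.10 (SD, n = 4). It is dim, at levels of 7.51 to 7.72 in the control pools and 7.65 to 7.92 in the mutant pools. Its small spread is therefore no mark of a better reading than that of the first probe. The third probe, from a cDNA clone at chr8:76210605-76210664, gave -0.24, -0.12, 1.01 and 0.08, a mean of 0.18 ± 0.57, and its one high value came from array 3. All 3 means lay between 0.15 and 0.19, and for the first and the third the SD over arrays was larger than the mean.

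Ednrb, the receptor of melanocyte and enteric precursors that is also present on endothelium, had 2 probes past the filter. The first, at chr14:98247658-98247717 on the minus strand, gave log2 levels of 11.15, 11.07, 11.17 and 11.40 in the control pools and 11.41, 11.03, 10.68 and 11.16 in the mutant pools. The mutant pool was higher on array 1 and lower on the others, and the groups overlapped. The ratios of 0.26, -0.04, -0.49 and -0.24 have a mean of -0.13 ± 0.32 (SD, n = 4), and of -0.16 without array 2. The second probe, at chr14:98249421-98249480, ordered the arrays the same way, with 0.03, -0.07, -0.35 and -0.17 and a mean of -0.14 ± 0.16. Of the listed neural crest and neuronal markers, 7 of 8 were tested and their median ratio was -0.23, 0.11, -0.24 and -0.43 on arrays 1 to 4. Their summed linear levels lay between 5946 and 7185 in the control pools and between 4794 and 5566 in the mutant pools. Sox10 was past the filter, and the part of these cells in the Ednra and Ednrb values was not tested.

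Calcrl, the shared receptor of adrenomedullin and calcitonin gene-related peptide, had 2 probes whose means differ in sign. The brighter one, at chr2:84174628-84174687 on the minus strand, gave log2 levels of 13.60, 13.90, 13.47 and 13.80 in the control pools and 13.63, 13.48, 13.32 and 13.65 in the mutant pools, with overlap. Its ratios were 0.03, -0.42, -0.15 and -0.15, with a mean of -0.17 ± 0.19 (SD, n = 4) and -0.09 without array 2. The dimmer one, at chr2:84176632-84176691, gave 0.11, -0.0035, 0.10 and 0.07, with a mean of 0.07 ± 0.05. Its levels were only 7.67 to 7.94 in the control pools and 7.77 to 8.01 in the mutant pools. Both probes are listed for the same transcript.

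Ramp1, the partner that turns CALCRL into a receptor for calcitonin gene-related peptide, was lower in the mutant pool on all 4 arrays. The files place its 60 bases between 91104321 and 91130576 of mm7 chromosome 1, a stretch of 26256 bases, so its bases do not lie in 1 unbroken piece of the genome. It is printed whole for that reason.
Ramp1 probe, chr1:91104321-91130576, mm7, plus strand: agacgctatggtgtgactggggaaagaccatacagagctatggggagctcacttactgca
The log2 levels were 10.77, 11.05, 10.93 and 10.75 in the control pools and 10.26, 10.22, 10.31 and 10.36 in the mutant pools. The mutant pools lay within 0.15 of one another, and the highest of them was 0.39 below the lowest control pool. The log2 ratios were -0.51, -0.84, -0.63 and -0.39, with a mean of -0.59 ± 0.19 (SD, n = 4), or 0.664 of the control level. Without array 2 the mean was -0.51 ± 0.12 (n = 3). Before normalization the mutant channel, brighter as a whole, read 1539.6 to 1803.6 for Ramp1 and the control channel 1247.2 to 1557.4, so the lower ratio is relative to other probes of like brightness. A lower mean was seen for 212 genes (1.11%). A second Ramp1 probe, from a cDNA clone at chr1:91095243-91095302, was not well above background in any pool and gives no second reading.

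Ramp2, the partner that makes CALCRL an adrenomedullin receptor in the embryo's vessels, was lower on all 4 arrays by small amounts. Its levels were 15.15, 15.19, 15.06 and 15.09 in the control pools and 14.93, 14.79, 15.04 and 15.06 in the mutant pools. The groups touch, since the highest mutant pool and the lowest control pool differ by 0.0021. Ratios of -0.22, -0.40, -0.02 and -0.02 give a mean of -0.16 ± 0.18 (SD, n = 4), and arrays 3 and 4 are close to 0. Without array 2 the mean was -0.09. Ramp1 and Ramp2 were the members lower on all 4 arrays, 2 of 9, where 12.6% of all genes were. Ramp1 was the only one whose mutant levels all lay below the control levels, as for 5.10% of all genes.

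Ramp3, the third partner, rested on 1 library. The first 30 bases of its probe at chr11:6629300-6629359 on the plus strand are given.
Ramp3 probe, bases 1 to 30: cgattctgtgtccagtgtgggctggagctg
Its levels were 7.61, 10.31, 7.25 and 7.61 in the control pools and 7.61, 8.12, 7.64 and 7.56 in the mutant pools. The control pool of array 2 was high, the mutant pool of the same array was the next highest, and the other 6 pools lay between 7.25 and 7.64. Before background correction the control signals were 142.7, 968.2, 97.8 and 130.0. The log2 ratios were 0.01, -2.19, 0.39 and -0.06, with a mean of -0.46 ± 1.17 (SD, n = 4), and without array 2 the mean turned to 0.11 ± 0.24 (n = 3). Ramp3 was the only member of 9 for which the control pool of array 2 was more than 1 log2 unit above the other control pools.

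Values of marker lists for that library are given beside it. The median level of the 7 measured uterus and decidua genes was 11.33 in the control pool of array 2 and 8.53, 8.41 and 8.55 in the other control pools. Their summed linear levels ran from 15380 to 30820 in the control pools and from 14090 to 17840 in the mutant pools, and Pgr, Hoxd10 and Prl3c1 were not past the filter. For the 8 leukocyte markers the median was 10.64 there against 8.30, 8.29 and 8.50, with sums from 11570 to 46430 in the control pools and from 10020 to 14000 in the mutant pools. The 10 cushion mesenchyme markers summed to 527500 in that pool and to between 130300 and 132000 in the other control pools, while their median level of 13.44 lay within the 13.31 to 13.52 of the others. Endothelial and endocardial markers did not set this pool apart, with sums from 36340 to 40090 in the control pools and none of the 10 genes more than 1 log2 unit higher there. The part of these lists' cells in the Ramp3 value was not tested.

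**Figure D3:**
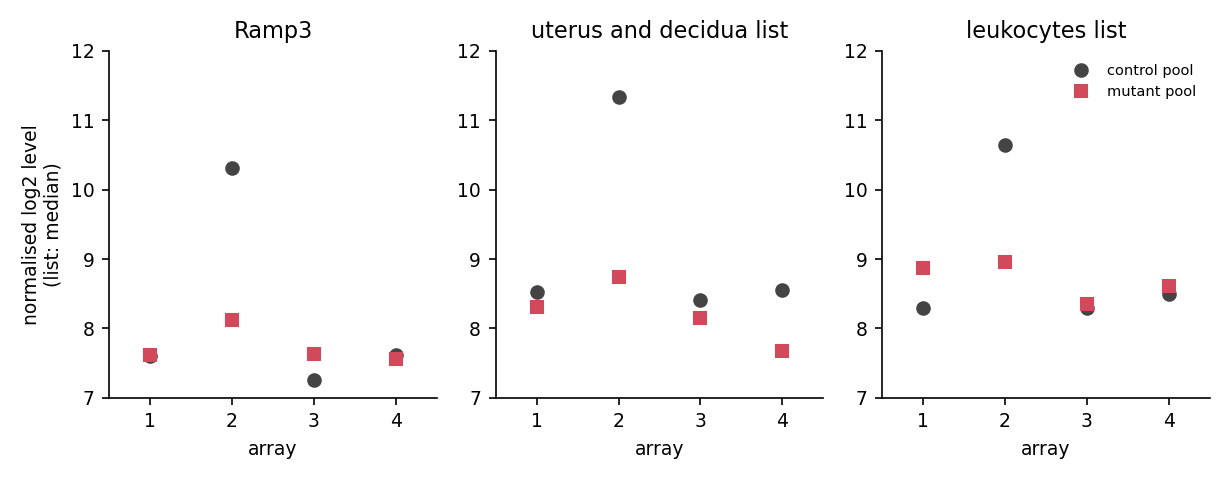
Normalised log2 level on each array (x axis) of Ramp3 and the median log2 level of the uterus and decidua list and of the leukocyte list, with grey circles for control pools and red squares for mutant pools. In all 3 panels the control pool of array 2 is the highest point, at 10.31 for Ramp3, 11.33 for the uterus and decidua list and 10.64 for the leukocyte list.

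**Figure D4:**
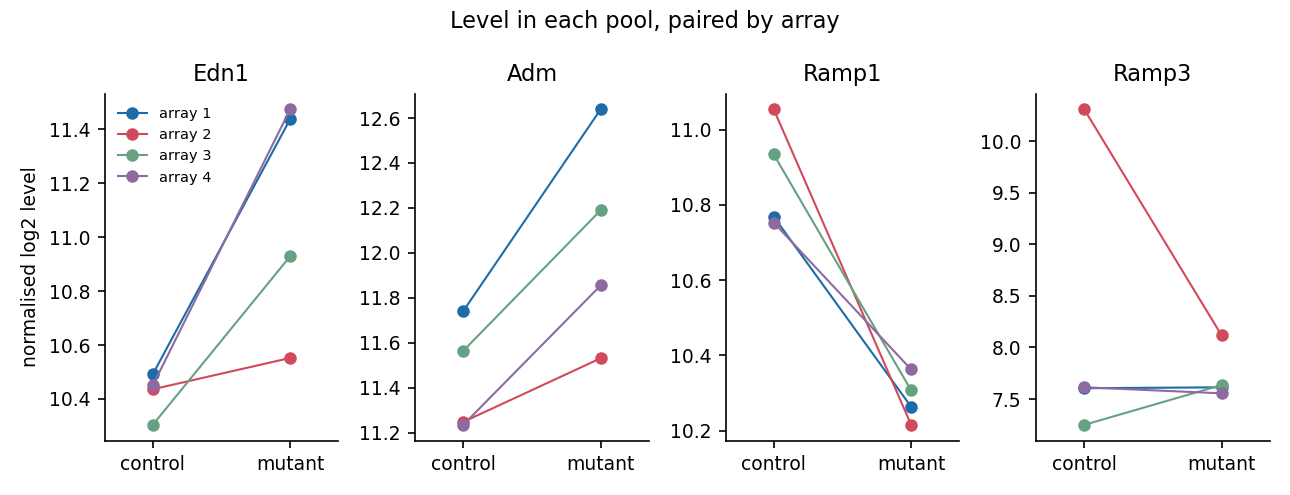
Normalised log2 level (y axis, with a range of its own in each panel) of Edn1, Adm, Ramp1 and Ramp3 in the control and mutant pool of each array, joined by a line for each array. Lines climb for Edn1 and Adm and descend for Ramp1 on all 4 arrays, while for Ramp3 only that of array 2 is steep.

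Over the 9 measured members the median of the mean log2 ratios was -0.13, with 4 of 9 above 0. Over all 19099 genes the median was 0.0012, with 9608 above 0. By array the members' median was 0.03, -0.25, 0.36 and -0.02. Most receptors and partners, and the enzyme gene Ece1, were near 0 on average, with Ednra and Ece1 slightly above and Ednrb, Calcrl and Ramp2 slightly below. Edn1 and Adm lay above 0 on every array, and Ramp1 and Ramp2 below it. The Ramp3 mean of -0.46 rested on array 2. Centring each array on its median in place of loess moved all 9 means up, with the median of all genes at 0.23, and gave 1.01 for Edn1, 0.97 for Adm, 0.81 for Ece1, 0.65 for Ednra and -0.27 for Ramp1. Under that scaling Calcrl (0.30), Ednrb (0.22) and Ramp2 (0.46) turned positive.

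Of the 9 marker lists, that of the low-oxygen response had the highest median ratio. Each of the 12 listed genes had a positive mean, where 9608 of all 19099 genes had one. Of the 12, 10 had a positive ratio on every array, where 12.3% of all genes had one. The median ratio of the list was 0.90, 0.43, 0.91 and 0.71 on arrays 1 to 4. Their summed linear levels were 273000 to 327800 in the control pools and 543700 to 639600 in the mutant pools, with no overlap. None of the 12 passed the threshold in limma (10 had an unadjusted p under 0.05, beside 14.5% of all genes), while without array 2 limma passed 6 of them, all higher, among the 193 of 19099. Array 2 gave the smallest median of this list, and the smallest ratio of Edn1 and Adm. It also gave the lowest median of the cushion mesenchyme (-0.39), uterus and decidua (-2.46) and leukocyte (-0.93) lists, but not of the other marker lists. Endothelial and endocardial markers, the cells in which endothelin 1 and the adrenomedullin receptor are best known, had a median of -0.06, 0.08, 0.04 and -0.02, with sums of 36540 to 39630 in the mutant pools. Myocardial markers had sums of 394300 to 533200 in the control pools and 618900 to 725200 in the mutant pools. Their median ratio was -0.0034, 0.51, 0.51 and 0.20, and 4 of 8 were higher on all 4 arrays, where 12.3% of all genes were. Actn2 (-0.07) and Nkx2-5 (-0.08) had negative means. Erythroid markers had sums of 284600 to 706400 in the control pools and 729900 to 1097000 in the mutant pools, with no overlap. The globin genes Hba-x, Hbb-y and Hbb-bh1, the brightest of the list, dominate these sums. Of the 8 markers, 2 were higher on all 4 arrays, where 12.3% of all genes were. Alas2 (-0.11), Slc4a1 (-0.16) and Klf1 (-0.22) had negative means. The list's median ratio differed in sign between arrays (1.18, 0.49, -0.29 and -0.14). Cushion mesenchyme markers had lower sums in the mutant pools, 107100 to 113900 against 130300 or more in every control pool. The brightest of the list, Col1a1, Col3a1 and Postn, weigh most in these sums. The list's median ratio was -0.23, -0.39, -0.09 and -0.22, and 4 of 10 were lower on all 4 arrays, where 12.6% of all genes were. Of the 10, 7 had a negative mean, while Vcan (0.05), Tbx20 (0.02) and Msx1 (0.08) had positive means. With median centring the median of the list's means was 0.14. The part of any of these lists in the Edn1, Adm or Ramp1 values was not tested.

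The other genes of the endothelin pathway comprised 23 listed genes, 21 of them tested; Dlx3 was above background in no pool and Dlx6 was not matched to a probe. None of the 21 passed the limma threshold in either direction, with array 2 or without it. At an unadjusted p under 0.05, 1 of the 21 was higher and 0 were lower, where 14.5% of all genes passed. Their median was -0.02 and 3 were higher on all 4 arrays, a share close to the 12.3% of all genes. The 3 were Edn2, Mef2c and Gna13. Edn2, the third endothelin, gave log2 ratios of 1.85, 0.16, 0.63 and 0.27 and a mean of 0.73 ± 0.78 (SD, n = 4, limma adjusted p = 0.348). Array 1 dominates this mean, which was 0.35 without array 1 and 0.92 without array 2. The Edn2 probe is dim, with control levels of 6.80 to 7.52. Mef2c, a transcription factor downstream of endothelin in neural crest and a core factor of heart muscle, gave 0.29, 0.38, 0.39 and 0.53. Its mean was 0.40 ± 0.10 (limma adjusted p = 0.142). Gna13, a G protein subunit, had a mean of 0.10 ± 0.11 (limma adjusted p = 0.546). The pair with the brightest probes was Furin, which makes the first cut in the endothelin precursor, at -0.16 ± 0.14 (limma adjusted p = 0.407), and Gna12, another G protein subunit, at -0.06 ± 0.22 (adjusted p = 0.827), or -0.17 without array 2.

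The list for adrenomedullin and its relatives held 20 genes, 17 of them tested; Adm2, Calcb and Iapp were not past the filter. None of the 17 passed the limma threshold, with array 2 or without it. At an unadjusted p under 0.05, 0 of the 17 were higher and 1 was lower, beside the 14.5% of all genes. Their median was 0.02 and 3 were lower on all 4 arrays, beside the 12.6% of all genes. Mmp2, a matrix protease that can cut adrenomedullin, gave -0.36, -0.39, -0.23 and -0.47 with a mean of -0.36 ± 0.10 (SD, n = 4; limma adjusted p = 0.143). Ackr3, a decoy receptor that removes adrenomedullin, had a mean of -0.25 ± 0.27 (adjusted p = 0.396), and Crcp, a component needed for signalling of the CALCRL complex, had one of -0.11 ± 0.07 (adjusted p = 0.470). Of the brightest, Gnas, the stimulatory G protein subunit through which CALCRL raises cyclic AMP, had a mean of 0.05 ± 0.51 (adjusted p = 0.926), which turned to -0.20 without array 2, and the arrestin gene Arrb1 one of -0.04 ± 0.22 (adjusted p = 0.875).

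**Figure D5:**
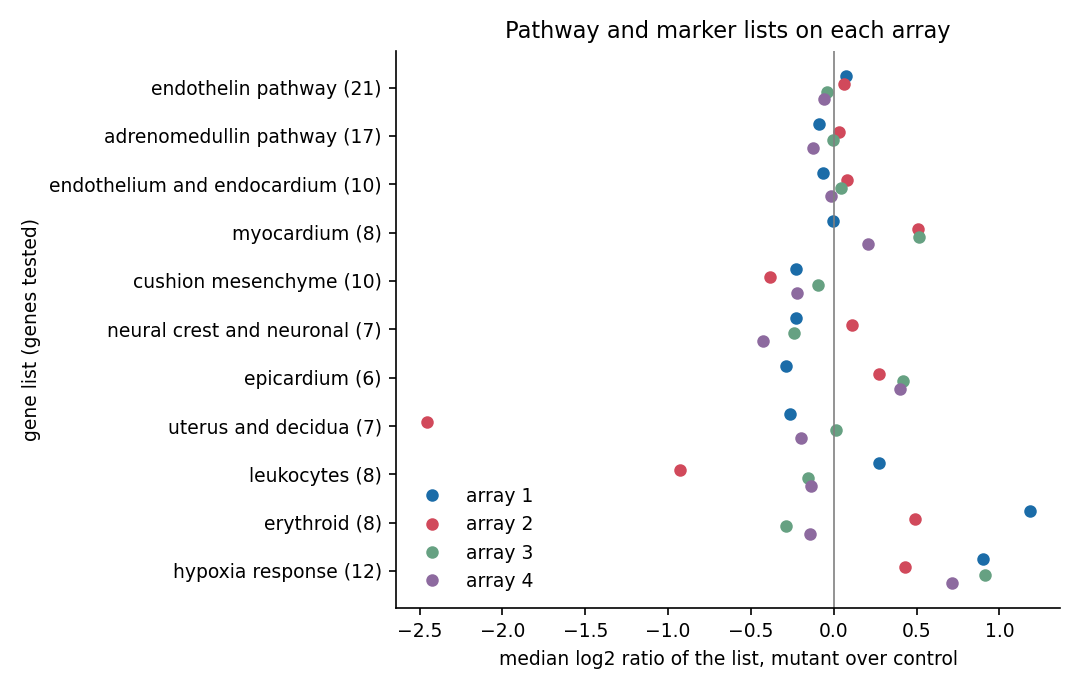
Median log2 ratio of mutant over control (x axis) of each gene list (rows, with the number of genes tested), with 1 point for each array. The 2 pathway lists lie near 0 on every array, the hypoxia list lies above 0 on all 4, and the uterus and decidua list has its point for array 2 at -2.46.

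Genes with a pattern like that of the 3 members with the largest mean ratios were sought among all 19099 genes, as the smallest root mean square difference of the 4 log2 ratios. For Edn1 these were Syngr1 (a difference of 0.126), Samsn1 (0.137) and Hbegf (0.143), and no further gene lay within 0.15. Hbegf, a growth factor of the EGF family, gave log2 ratios of 0.87, -0.01, 0.82 and 0.87, with its lowest value, as in Edn1, on array 2. For Adm the nearest were Rps3 (0.0477) and Rps6 (0.0513), ribosomal protein genes, and a sequence listed as NAP029896-1 (0.0662), and 24 genes lay within 0.15. This likeness depends on the scaling: with the scanner software's processed signals Adm was at 0.62 and Rps3, Rps6 and NAP029896-1 at 0.30, 0.26 and 0.36, and with a running median removed Adm was at 0.61 and they were at 0.15, 0.38 and 0.39. For Ramp1 they were Palmd (0.108), Txnip (0.113) and Ago4 (0.119), with 9 genes within 0.15. With the mean over a gene's probes Ago4 was only at -0.15, while Ramp1 stayed at -0.59, Palmd at -0.52 and Txnip at -0.48. Txnip, an inhibitor of thioredoxin, gave -0.41, -0.77, -0.51 and -0.55. Likeness over 4 ratios, which all genes share, is a description of these arrays.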

How the data were processed

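RNA from 8 pools was measured on 4 two-colour arrays of 60-base probes. The authors deposited scanner files made with Agilent Feature Extraction 9.5.1, as the submitters' processing notes say. The deposited intensity is the mean spot signal of each channel with its local background, per the file headers. A deposited log10 ratio sets red (mutant) over green (control). Positions are those of mm7 in the files; no annotation of that build was used, so exon or untranslated region is not stated.

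From the intensities, limma 3.58.1 in R 4.3.3 applied normexp (offset 50) and loess within arrays, control spots at weight 0. Non-uniform spots were left out. Of 41174 probes, 28806 were kept, having a channel well above background on 3 or more arrays. The brightest probe stood for a gene, named through RefSeq (22951 probes by accession, 6659 by symbol, 3109 by synonym, 8455 by the file). Mutant over control was tested against 0 by lmFit and eBayes (2-sided), and p-values were adjusted after Benjamini and Hochberg over 19099 genes. Channel levels are log2 values after Aquantile normalization between arrays; sums are of linear levels. The procedure was tested on simulated data. The number of arrays limits the precision.

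Members and lists were chosen with earlier results of these data known. Named pathway genes are the 3 with the largest mean and the same sign on all 4 arrays, and the 2 brightest, of each list; the genes most like the 3 members with the largest means are named too. The labels call the arrays biological replicates. Alternatives covered background correction, normalization, the filter, probes, array weights, the deposited ratios and leaving out each array.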

Additional observations from a re-analysis of the deposited data

Results flagged for a closer look

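Of 70 groups of 4 arrays or pools examined, 8 held a value set apart from the other 3 by a gap past Dixon's critical value, and 7 of the 8 were on array 2. The groups overlap and hold members and likeness genes picked from these same ratios, so the count has no chance rate to be set against. Hbegf and Palmd were picked for their likeness to Edn1 and Ramp1, whose own lowest ratios were on array 2. Ramp3 had a control level of 10.31 on array 2 against 7.25 to 7.61 in the other control pools, and a mutant level of 8.12 there against 7.56 to 7.64. The median ratio of the uterus and decidua list was -2.46 on array 2 against -0.26 to 0.01 on the others. Gna12 had a log2 ratio of 0.27 on array 2 against -0.17 to -0.15, and Gnas one of 0.82 against -0.26 to -0.16. Hbegf stood at -0.0144 on array 2 against 0.82 to 0.87. Palmd was at -0.85 on array 2 against -0.43 to -0.37. The exception was the Ednra probe printed whole above, with -0.0019 on array 1 and 0.20 to 0.22 on the other arrays.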

How the results depend on the processing

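The mean ratios of Edn1 (0.56 to 1.01), Adm (0.51 to 0.97), Ramp1 (-0.66 to -0.27), Ece1 and Ednra kept their sign in all 15 alternatives. Calcrl, Ednrb and Ramp2 turned positive under median centring (0.30, 0.22 and 0.46), and Ramp3 without array 2 (0.11) and with array weights (0.07). Median centring in place of loess moved the median of all genes to 0.23. It gave 7782 of 19099 genes past the threshold (7203 higher, 579 lower). Of the pathway genes 13 were past it, all higher, namely 9 of 21 tested for endothelin and 4 of 17 for adrenomedullin. On every array 6 members were higher and 1 lower, with a members' median of 0.46. The share of all genes with 1 sign on every array was not counted in this or the other alternatives, so such member counts have no background there. Median centring also turned Furin (0.40), Gna12 (0.40), Ackr3 (0.18), Crcp (0.24) and Arrb1 (0.49) positive. Array weights gave 2790 of 19099 genes (1475 higher, 1315 lower) and 8 pathway genes past the threshold, and Gnas at -0.16. The main count of 1 gene (Tbx3) became 3 with the scanner software's processed signals and with the deposited ratio, all higher, so that Tbx3 was lost (adjusted p = 0.0548 and 0.0547 in limma), and 0 without background correction, with an offset of 16, with scale normalization and with the mean over probes. Removing a running median left Arrb1 at 0.0123. Leaving out 1 array gave 0 to 193 genes past the threshold, the 193 (130 higher, 63 lower) without array 2, and 2 to 4 members lower on every array, the 4 without array 1. It put Gnas between -0.20 (without array 2) and 0.16, Arrb1 between -0.13 and 0.0487 (without array 3) and Gpr182 between -0.0293 and 0.11, below 0 without array 1, 3 or 4. The cause was not tested. No paired analysis was possible beyond the ratios because each array already pairs 1 mutant pool with 1 control pool. Probes near background, such as those of Edn3, set no ratio.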

Other observations

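The genes named here were picked after their values were seen. Gpr182, which the array lists as Admr from its time as a proposed adrenomedullin receptor, had 2 probes. The brighter gave a mean log2 ratio of 0.01 ± 0.20 (SD, n = 4; limma adjusted p = 0.972), and the other gave 0.07 ± 0.12. Calcr, the calcitonin receptor, varied most on array 3, with ratios of -0.35, 0.18, 2.68 and 0.89 and a mean of 0.85 ± 1.32 (adjusted p = 0.493).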
